A study of Mus musculus with 58 samples.

Results

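RNA from striatal lysates of wild-type mice was compared between the 2 mouse lines of the study: 4 wild-type mice of the 16p11.2 line (animals RNA-498, RNA-499, RNA-505 and RNA-517) and 3 wild-type mice of the 3g line (animals RNA-300, RNA-301 and RNA-318), 7 of the 58 samples of the series. The samples were chosen by genotype, line and library type alone, and no measured value entered the choice. The 16p11.2 line carries a heterozygous deletion of the mouse region that corresponds to human 16p11.2, and the 3g line carries premature stop codons in Taok2, Sez6l2 and Mvp, 3 genes of that region, on the same chromosome. The animals compared here are the littermates of both lines without either change, so neither the deletion nor the stop codons separate the groups. All 7 mice were male and are labelled with the strain B6129S. The lysates were those also used for ribosome profiling, and their RNA was sequenced as single reads. The 16p11.2 line came from a commercial colony, and the 3g line was made by CRISPR editing with C57BL/6J animals. For each line all wild-type mice come from that line's own colony, so line, colony and any difference in handling between the colonies cannot be told apart.

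The striatum is the input nucleus of the basal ganglia. Most of its neurons are GABA-releasing spiny projection neurons, which fall into a direct pathway (dopamine receptor Drd1, the opioid peptide precursor Pdyn and the substance P precursor Tac1) and an indirect pathway (the opioid precursor Penk). Cortex lies directly over it, so transcripts of cortical excitatory neurons measure how much overlying tissue came along in a dissection. Wild-type mice of separately kept lines can differ through segregating or drifted alleles, through the animals' state at death and through dissection, and a difference between mutant lines is read against that level.

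Each library held between 15102576 and 19122488 counts over 18411 genes, of which 17008 to 17250 were detected, and 14417 genes passed the filter on low counts. Mitochondrially encoded genes took 42.6 to 44.2% of the counts in the 3g libraries. In the 16p11.2 libraries they took 40.5 and 41.4% in RNA-498 and RNA-505 but 49.8 and 50.4% in RNA-499 and RNA-517, so the 4 mice fell into 2 pairs. Pearson's r of log CPM (CPM, a gene's share of its library's counts on the TMM scale) over genes was 0.983 to 0.985 within the 3g group, 0.976 to 0.983 within the 16p11.2 group and 0.975 to 0.986 between the groups. Replicates of the 16p11.2 line were no more alike than mice of different lines. No 2 libraries differed by as little as sampling noise. The labelled tissue held up against its markers: all 18 striatal projection neuron markers were above the filter, and Drd1 stood at 145 ± 8.16 CPM (SD, n = 3) in 3g mice and 131 ± 12.9 (n = 4) in 16p11.2 mice. Transcripts of the Y-linked genes Ddx3y, Eif2s3y, Kdm5d and Uty were present in every library.

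Most fold changes between the wild-type groups were small. Throughout, a log2 fold change is 16p11.2 minus 3g, and a gene is called when edgeR's quasi-likelihood fit gave it a Benjamini-Hochberg adjusted p under 0.05. Of 14417 genes 2 were called (0.0139%), both higher in 16p11.2 mice: Rpl29, a protein of the large ribosomal subunit, and Ccm2, a scaffold protein whose loss causes cerebral cavernous malformations. At an unadjusted p under 0.05 there were 1555 genes (10.8%), 843 of them higher in 16p11.2 mice (5.85%) and 712 lower (4.94%). DESeq2 called 162 of the 6944 genes to which it gave an adjusted p (2.33%), 117 higher and 45 lower, and these held both genes called by edgeR. Without RNA-318 neither of the 2 genes passed edgeR's threshold, and without RNA-499 and RNA-517 together 18 genes did. Over the 13739 genes tested in every comparison used below, the median absolute log2 fold change was 0.13 and the median standard error 0.14, and 76 genes exceeded 1 in absolute log2 fold change. In counts simulated with the dispersions of these 7 libraries the edgeR fit called 29 of 67 genes changed 1.5-fold and 53 of 67 changed 2-fold. Real differences of that size can thus go uncalled here. With 4 mice against 3 an exact permutation test of a single gene cannot go below p = 0.0571, so single genes carry only the p of the fit across all genes.

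Rpl29 was present at 18.2, 21.4, 27.4 and 20.6 CPM in the 16p11.2 mice RNA-498, RNA-499, RNA-505 and RNA-517. It was present at 7.99, 6.07 and 6.07 CPM in the 3g mice RNA-300, RNA-301 and RNA-318. All 4 mice of the 16p11.2 line were above all 3 of the 3g line, with a log2 fold change of 1.70 ± 0.16 (SE) and an adjusted p of 0.00176; without 3g mouse RNA-318 the adjusted p was 0.0524. Rpl29 has many processed copies in the genome, and how reads shared between copies were counted is not given in the sources used here, so its count is uncertain.

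Rpl29 lies on chromosome 9 among Poc1a, Dusp7, Acy1, Abhd14a and Abhd14b in the RefSeq order of genes (assembly GRCm38.p6). Poc1a and Abhd14a, named here after their values were seen, had the same pattern. Poc1a, a centriole protein, was at 5.37, 5.16, 10.1 and 5.22 CPM in RNA-498, RNA-499, RNA-505 and RNA-517 and at 2.85, 1.84 and 1.95 in RNA-300, RNA-301 and RNA-318 (log2 fold change 1.53 ± 0.28, adjusted p = 0.119). Abhd14a, a hydrolase-fold protein, was at 8.42, 8.47, 12.1 and 8.55 CPM against 4.49, 2.92 and 4.29 (1.26 ± 0.20, adjusted p = 0.0886). For all 3 genes the groups did not overlap, as for 1577 of the 14417 genes tested (10.9%), and RNA-505 was the highest library. The genes between and beside them differed less: Dusp7, a phosphatase of ERK, had 0.46 ± 0.12 (adjusted p = 0.238), Acy1, an aminoacylase, had 0.30 ± 0.20 (0.633) and Abhd14b had -0.09 ± 0.17 (0.893).

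The promoters of the neighbours are shown because their levels were high and low in the same mice as Rpl29. Of the 3 genes, 2 (Poc1a and Abhd14a) matched an entry of the RefSeq promoter table. The 250 bases before the annotated start are given 5′ to 3′ on the gene's own strand, from build GRCm38.p6; the counts themselves were made on mm39. Capitals mark CCAAT and GGGCGG on either strand (ATTGG and CCGCCC on the reverse), which may overlap each other; 33.8% and 32.7% of the table's 32851 promoters hold them in the same window. Poc1a is read from chr9:106280811-106281060 on the plus strand and Abhd14a from chr9:106447679-106447928 on the minus strand.
Poc1a: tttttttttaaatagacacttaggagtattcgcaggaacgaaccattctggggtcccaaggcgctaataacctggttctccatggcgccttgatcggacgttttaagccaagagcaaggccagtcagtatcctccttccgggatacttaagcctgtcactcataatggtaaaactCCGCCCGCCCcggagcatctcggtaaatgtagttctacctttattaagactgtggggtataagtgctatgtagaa
Abhd14a: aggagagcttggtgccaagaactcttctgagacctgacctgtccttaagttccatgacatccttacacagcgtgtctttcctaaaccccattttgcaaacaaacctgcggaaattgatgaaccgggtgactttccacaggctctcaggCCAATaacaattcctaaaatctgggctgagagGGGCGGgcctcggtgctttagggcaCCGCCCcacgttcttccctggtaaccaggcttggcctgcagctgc
The Poc1a window holds 0 CCAAT and 2 overlapping GGGCGG matches, and the Abhd14a window holds 1 and 2. A match in such a window is a description of the letters only.

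The levels of this locus did not follow the line once the del/+ mice, littermates that carry the deletion or the 3 stop codons and were sequenced from 6 other lysates, were set beside the wild types on a common scale of all 13 lysate libraries. In 3g del/+ mice RNA-302, RNA-303 and RNA-319 Rpl29 was at 17.1, 19.1 and 15.5 CPM, above all 3 of the 3g wild types. In 16p11.2 del/+ mice it was at 19.5 in RNA-504, 16.2 in RNA-506 and 8.97 in RNA-516, the last near the 3g wild types. Poc1a was at 4.34, 6.54 and 5.49 CPM in the 3g del/+ mice, at 5.58 in RNA-504 and 4.99 in RNA-506, and at 1.96 in RNA-516. Abhd14a was at 6.80, 7.13 and 8.98 CPM in the 3g del/+ mice, at 7.01 in RNA-504 and 9.38 in RNA-506, and at 4.63 in RNA-516. The same 4 mice (RNA-300, RNA-301, RNA-318 and RNA-516) were thus lowest for the 3 genes. The line difference of Rpl29 in del/+ mice was -0.21 ± 0.21, and its line by genotype interaction was -1.90 with an adjusted p of 0.00932. The interaction called 18 of 14740 genes (0.122%), of which 16 lie in the deleted region, and the other 2 were Rpl29 and Gm44579.

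**Figure D1:**
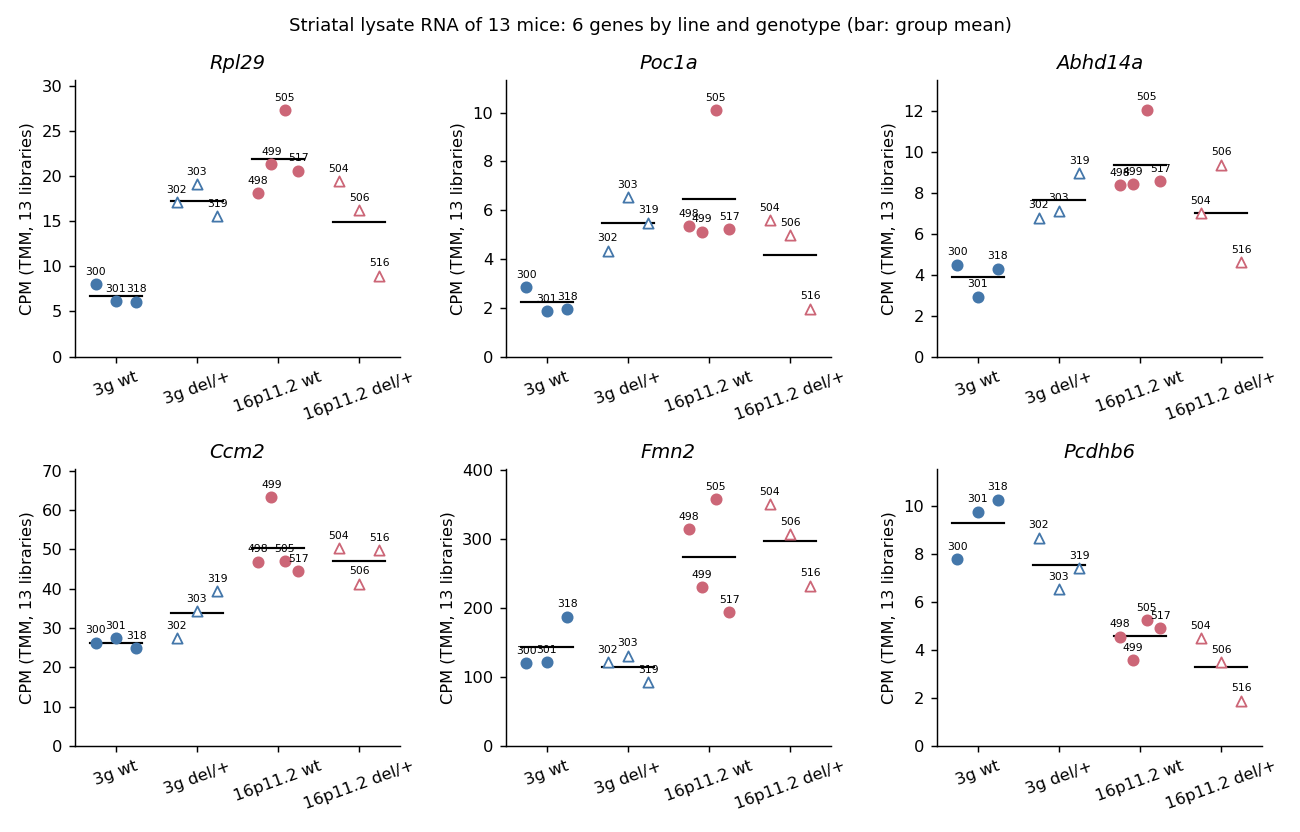
Level of 6 genes in the 13 striatal lysate RNA libraries, in CPM on a TMM scale over all 13, by line and genotype; each point is a mouse, labelled with its number, and bars are group means. Rpl29, Poc1a and Abhd14a are low in the 3 wild-type 3g mice and in RNA-516, while Ccm2, Fmn2 and Pcdhb6 separate the lines in wild-type mice.

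Bulk RNA-seq libraries of other wild-type mice of both lines, also from striatum, gave further levels of Rpl29. In females of the 16p11.2 line it was at 183 CPM in animal 1 and at 23.8, 17.9 and 17.5 in animals 2, 3 and 4. In 3g females it was at 70.1, 65.4, 68.5 and 72.6 CPM. In 16p11.2 males it was at 104, 92.3, 95.2 and 95.05 CPM, and in 3g males at 62.8, 60.3 and 65.4 in animals 24, 26 and 34 but at 95.4 in animal 17. Within the 16p11.2 females the highest library was thus over the lowest by more than the lines differed in lysates, and 3g male 17 had the level of the 16p11.2 males. Poc1a and Abhd14a were again highest in female 1 of the 16p11.2 line, at 15.0 and 34.4 CPM against 5.27 to 6.05 and 12.5 to 15.3 in the other 3. In males Abhd14a ran from 19.02 to 27.2 CPM in the 16p11.2 line and from 24.9 to 26.6 in 3g, so there it did not follow Rpl29.

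Ccm2 was present at 47.1, 63.7, 47.1 and 44.4 CPM in the 16p11.2 mice and at 26.3, 27.2 and 24.8 CPM in the 3g mice. The groups did not overlap, RNA-499 being the highest of all, and the log2 fold change was 0.95 ± 0.13 with an adjusted p of 0.0312. The call was lost without any of the 3 3g mice or without RNA-498, with adjusted p of 0.0655 to 0.252 and log2 fold changes of 0.92 to 0.99. With each mouse left out in turn the log2 fold change ran from 0.82 (without RNA-499) to 1.01 (without RNA-517). In del/+ lysates Ccm2 was at 27.5, 34.3 and 39.4 CPM in 3g mice and at 50.4, 41.3 and 49.8 in 16p11.2 mice, again without overlap (0.48 ± 0.14, unadjusted p = 0.00425, adjusted p = 0.126). In the RNA-seq of females it was called higher in 16p11.2 mice, at 108, 123.5, 77.4 and 106 CPM against 80.8, 81.6, 74.3 and 77.5 (0.40 ± 0.11, adjusted p = 0.0105). Over all 8 males it was not called (0.27 ± 0.12, adjusted p = 0.132), with 16p11.2 mice at 103.4 to 116 CPM, animal 17 at 111 and the other 3g males at 78.7 to 95.3, and without animal 17 it was called (0.39 ± 0.09, adjusted p = 0.00664). In the footprints of the same 7 lysates Ccm2 had a log2 fold change of 0.39 with an unadjusted p of 0.282. Ccm2 was the only gene called in both wild-type lysate RNA and RNA-seq of females.

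A further 9 genes had an adjusted p between 0.05 and 0.10, and those named here were named after their values were seen. Higher in 16p11.2 mice were Chsy3, a chondroitin synthase (48.0 ± 6.26 against 30.2 ± 0.519 CPM, SD, n = 4 and 3), Bckdhb, a subunit of the branched-chain keto acid dehydrogenase (25.9 ± 3.10 against 15.6 ± 1.94), and Cryab, a small heat shock protein (61.9 ± 6.93 against 40.9 ± 1.57). Olfr285, an olfactory receptor symbol, stood at 165 ± 45.2 against 77.2 ± 8.63 CPM, a level at which reads from another transcript at that site cannot be told apart from its own. Lower in 16p11.2 mice were Ackr4, a scavenging chemokine receptor (0.403 ± 0.239 against 2.42 ± 0.496), Greb1l, a retinoic acid-linked regulator (7.25 ± 0.827 against 13.8 ± 2.67) and Pcdhb6, a clustered protocadherin (4.59 ± 0.708 against 9.24 ± 1.29). Abhd14a, given above, is another. The groups did not overlap for these genes, which were picked for their small p. DESeq2 called Chsy3, Bckdhb, Cryab and Olfr285, and it also called Camk2n1, an abundant inhibitor of the kinase CaMKII (6629 ± 489 against 4564 ± 105 CPM, log2 fold change 0.54). It gave Ackr4, Greb1l, Pcdhb6 and Abhd14a no adjusted p.

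The clustered beta protocadherins on chromosome 18, neuronal adhesion proteins encoded side by side that give neurons their surface identity, were lower in 16p11.2 mice as a family. The family was picked out after its values were seen, and its members are near copies whose reads can be split between them, so they are not independent. Of 22 Pcdhb genes 21 were tested, all 21 had a log2 fold change below 0 and 17 had an unadjusted p under 0.05, with none called; the background at that threshold in this direction was 4.94%. Their median log2 fold change was -0.55 against -0.0022 over all genes. Summed over the family, the 3g wild types were at 153, 164 and 181 CPM in RNA-300, RNA-301 and RNA-318. The 16p11.2 wild types were at 118, 95.9, 112 and 128 CPM in RNA-498, RNA-499, RNA-505 and RNA-517. The groups did not overlap for the sum. Within the family the difference ranged from -1.03 in Pcdhb2, -1.02 in Pcdhb7 and -1.0 in Pcdhb6 to -0.25 in Pcdhb9. In del/+ mice, which share no animal with the wild types, the sums were 161, 127 and 147 CPM in 3g and 99.99, 113 and 96.9 CPM in 16p11.2 mice, 20 of 21 members were lower, and Pcdhb3 was called (-1.41, adjusted p = 0.0396). In RNA-seq 17 of 22 members were below 0 in females, 10 of them called, where 30.1% of all genes were called lower. In males without animal 17 it was 17 of 22, 4 of them called, where 22.8% of all genes were called lower, so that share of members was below the background. The medians were smaller, at -0.29 and -0.17.

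Over chromosomes, genes with an unadjusted p under 0.05 were 8.15 to 13.3% of the tested genes on all autosomes other than 18 and 9.09% on X, while chromosome 18 had 80 of 402 (19.9%). Without the Pcdhb genes chromosome 18 still had 63 of 381 (16.5%). These include Greb1l, Chsy3, Arhgap12 (a GTPase-activating protein, 0.57 ± 0.12, adjusted p = 0.173) and Rbbp8 (a DNA end-resection factor, 0.84 ± 0.19, 0.173). Chromosome 9 had 13.3%, and it held 14 of the 72 genes with an unadjusted p under 0.001 and a known position. That was 1.76% of its tested genes, against 1.74% on chromosome 18 and 0.513% over all chromosomes. Of those 72 genes, 16 lay within 1 Mb of another, among them the Rpl29 neighbours and 3 Pcdhb genes. The share for all tested genes was not computed, so this count cannot be set against gene density.

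The same comparison in the 6 del/+ lysates called 103 of 14299 genes (0.72%), 18 of them in the deleted region. No animal is shared with the wild types, but the line and its colony are. Over the 14188 genes tested in both, 62.8% had the same sign and Pearson's r of the fold changes was 0.31. Of the 1541 genes with an unadjusted p under 0.05 in wild types, 1252 (81.2%) had the same sign in del/+ mice, and 34 of the 35 that were called there did. Over all genes tested in both, 80 of the 101 called in del/+ mice had the same sign, and these 101 include genes of the deleted region. Fmn2, an actin nucleator of neurons, was at 316, 233, 360 and 194 CPM in 16p11.2 wild types and 120, 121 and 187 in 3g wild types (0.95 ± 0.21, adjusted p = 0.173), and was called in del/+ mice (1.37, adjusted p = 0.00114). Fam107a, a stress-responsive actin regulator, was at 625, 782, 1112 and 299 CPM against 206, 464 and 296; its groups overlapped (1.13 ± 0.35, adjusted p = 0.297), and it was called in del/+ mice (1.67, adjusted p = 0.0155). Greb1l was called there as well, at -1.17. The sign was thus shared more often by the genes that differed in wild types than by all genes, while Rpl29, the gene with the smallest p in wild types, was not among them.

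**Figure D2:**
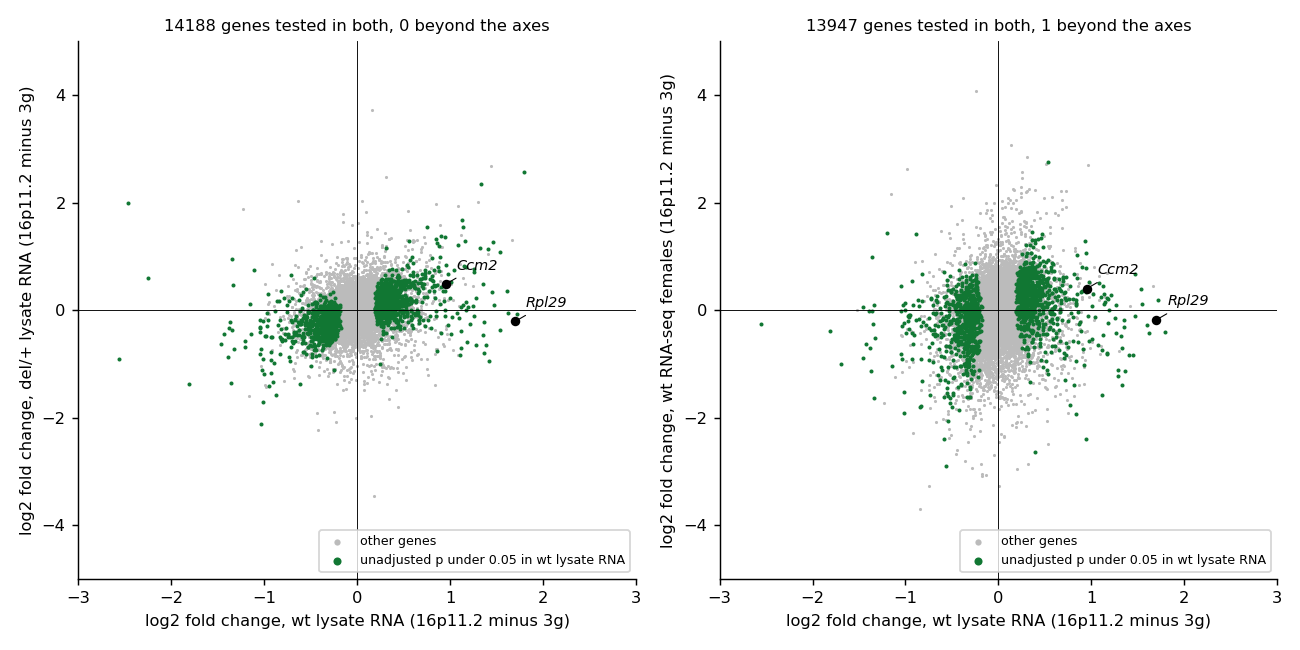
Log2 fold change between lines in wild-type lysate RNA on the horizontal axis, against the same contrast in del/+ lysate RNA (left) and in RNA-seq of wild-type females (right), each point a gene. Genes with an unadjusted p under 0.05 in wild-type lysates (green) share the sign more often than all genes (81.2 against 62.8% on the left, 70.2 against 58.5% on the right), and the vertical spread is larger on the right.

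In RNA-seq the lines were much further apart than in lysate RNA. In wild-type females 11385 of 19013 genes were called (59.9%), and in wild-type males 3 of 18561 (0.0162%) or, without the library labelled 3g male 17, 8835 of 19093 (46.3%). That library had the values of the 16p11.2 males for Rpl29, Ccm2 and Slc17a7 (741 CPM, with 16p11.2 males at 614 to 1065 and the other 3g males at 26.3 to 244). Rpl29 and Slc17a7 also varied among females of the same line. Whether the label of that library is right was not tested, and leaving it out was decided with its values known. Over the 13739 shared genes 747 exceeded 1 in absolute log2 fold change in females against 76 in lysates, and the median absolute value was 0.29 against 0.13. Of 1502 genes with an unadjusted p under 0.05 in lysates, 1055 (70.2%) had the same sign in females, where all genes gave 58.5%. In males without animal 17 the shares were 72.1 and 58.8%. Pearson's r across genes was 0.19 with females and 0.22 with males without animal 17. Of the 2 genes called in lysates 1 was called in females with the same sign. Of the 162 that DESeq2 called in lysates, it called 99 in females with the same sign. Over the 13947 genes tested in both by edgeR, 8863 were called in females, 5530 of them with the lysate sign. Lysate and RNA-seq libraries differ in preparation, read length and mice, so a gene-by-gene comparison between the assays is a description.

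A wide gap between the assays was in the cortical markers. The 10 cortical neuron markers had a median log2 fold change of 1.75 in RNA-seq females and 2.54 in males without animal 17, but 0.17 in lysates, where none had an unadjusted p under 0.05. Slc17a7, the vesicular glutamate transporter of cortical neurons, was at 335, 121, 243 and 204 CPM in the 16p11.2 lysates and 287, 121 and 208 in the 3g lysates. Each line thus held low and high mice, and the lines overlapped. Summed over the 10 markers, the 16p11.2 mice ran from 318.97 to 728 CPM and the 3g mice from 336 to 639. In RNA-seq females Slc17a7 was at 667, 675, 1000 and 686 CPM in 16p11.2 mice and 132, 92.9, 124 and 457 in 3g mice, and in the males 3g 17 was the exception given above. The sign of the lysate median turned without RNA-301 or without RNA-498 (-0.06 and -0.12). The 12 endothelial markers had a median of -0.09 in lysates, where they ran from -0.47 to 0.26, and of -0.72 in females. The VEGF receptor Flt1 had -0.11 ± 0.14 in lysates. In bulk tissue fewer cells of a type and less RNA per cell cannot be told apart.

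Blood transcripts were the list with the largest median difference in lysates. All 5 genes (Hba-a1, Hba-a2, Hbb-bs and Hbb-bt, the haemoglobin chains, and Alas2, the haem synthesis enzyme of red cells) had an unadjusted p under 0.05 and were higher in 16p11.2 mice, where the background in that direction was 5.85%. All 5 are red cell genes, so they are not independent of each other. None was called by edgeR, and DESeq2 called the 4 globin genes and gave Alas2 no adjusted p. Hba-a2 was at 88.9, 127, 102 and 94.9 CPM in RNA-498, RNA-499, RNA-505 and RNA-517 and at 66.4, 65.3 and 68.1 in RNA-300, RNA-301 and RNA-318. The groups did not overlap and the 3g mice were nearly equal (0.63 ± 0.12, adjusted p = 0.119). Hbb-bs was at 74.7, 115, 67.9 and 94.4 CPM against 55.9, 54.6 and 54.1 (0.68 ± 0.15, adjusted p = 0.173). The median over the list was 0.67, and 0.51 without RNA-499, the library with the most. RNA-499 and RNA-517 are also the libraries with 49.8 and 50.4% mitochondrial counts; without both the median was 0.41 (Hba-a2 0.52, Hbb-bs 0.38) and 4 of the 5 genes had an unadjusted p under 0.05. In del/+ lysates the median was 0.13, with 3g mouse RNA-319 at a summed 322 CPM against 231 and 265 in the other 3g del/+ mice, and in RNA-seq females it was -0.16. The share of RNA from blood left in the vessels at dissection was not tested.

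For glucocorticoid-induced genes RNA-505 stood apart among the wild types. All 11 tested members had a log2 fold change above 0, with a median of 0.40, and 3 had an unadjusted p under 0.05 (the chaperone Fkbp5, the lipid droplet protein Plin4 and the transcription factor Zbtb16). Over all 14417 genes tested 7151 were above 0, and the background of higher genes at that p was 5.85%. In RNA-505 Tsc22d3, a glucocorticoid-induced leucine zipper protein, was at 84.8 CPM, Sgk1, a kinase, at 89.4, Plin4 at 15.5 and Zbtb16 at 45.0. In RNA-498, RNA-499 and RNA-517 Tsc22d3 was at 27.6, 30.5 and 21.6 CPM, and in the 3g mice at 27.7, 23.7 and 24.3. Sgk1 was at 38.2, 31.6 and 30.1 CPM in those 3 mice and at 35.2, 36.4 and 34.7 in 3g. RNA-505 alone was high for Tsc22d3, Sgk1 and Plin4, and without it the median of the list was 0.07. Fkbp5 had a log2 fold change of 0.36, and of 0.27 without RNA-505. The summed level was 580 CPM in RNA-505, 284 to 351 in the other 16p11.2 wild types and 286 to 346 in 3g wild types. In 16p11.2 del/+ mice RNA-504 and RNA-506 it was 684 and 531, with 361 in RNA-516, and in 3g del/+ mice 298 to 358. The del/+ groups did not overlap for the sum, and the list's median there was 0.73, with none of 11 members called. Lcn2, an acute-phase gene below the filter, was at 13.5 CPM in RNA-505 and at most 0.20 in the other 6 mice.

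RNA-505 was also the highest wild type for the summed heat shock genes. All 12 members were above 0 (median 0.33) and 5 had an unadjusted p under 0.05, all higher in 16p11.2 mice, where the background was 5.85%. The sums were 518, 434, 644 and 471 CPM in 16p11.2 and 424, 409 and 448 in 3g wild types. Hsph1, a nucleotide exchange factor of Hsp70, was at 111, 96.4, 172 and 100 CPM against 80.5, 86.0 and 94.4 (0.47 ± 0.17, adjusted p = 0.358). The groups did not overlap, but RNA-505 stood above the rest. Hspa8, the constitutive Hsp70, was at 116, 96.3, 116 and 111 CPM against 95.1, 84.1 and 97.9 (0.25 ± 0.10, adjusted p = 0.392), and Hsp90aa1 at 90.9, 66.8, 92.4 and 77.3 against 68.3, 62.6 and 74.2 (0.26 ± 0.12, 0.461). Without RNA-505 the list's median was 0.17. In del/+ mice it was 0.38, with sums of 617, 687 and 465 CPM in 16p11.2 and 455, 472 and 460 in 3g mice, which overlapped. In the integrated stress and unfolded protein response list (11 tested, median 0.29) 3 members were higher and 1 lower at that threshold: Atf4, its central transcription factor, had 0.29 ± 0.10, and Trib3, a target of Atf4, had -1.33 ± 0.37, at 0.503 to 0.641 CPM in 16p11.2 and 1.0 to 2.0 in 3g mice. Its most abundant member, the endoplasmic reticulum chaperone Hsp90b1, had 0.17 ± 0.15. The activity-induced list (19 tested, median 0.20) had 1 such member, Egr1, at 214, 163, 318.9 and 129 CPM against 109, 155 and 115 (log2 fold change 0.42 without RNA-505). The list's median ran from 0.085 without RNA-498 to 0.46 without RNA-517.

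**Figure D3:**
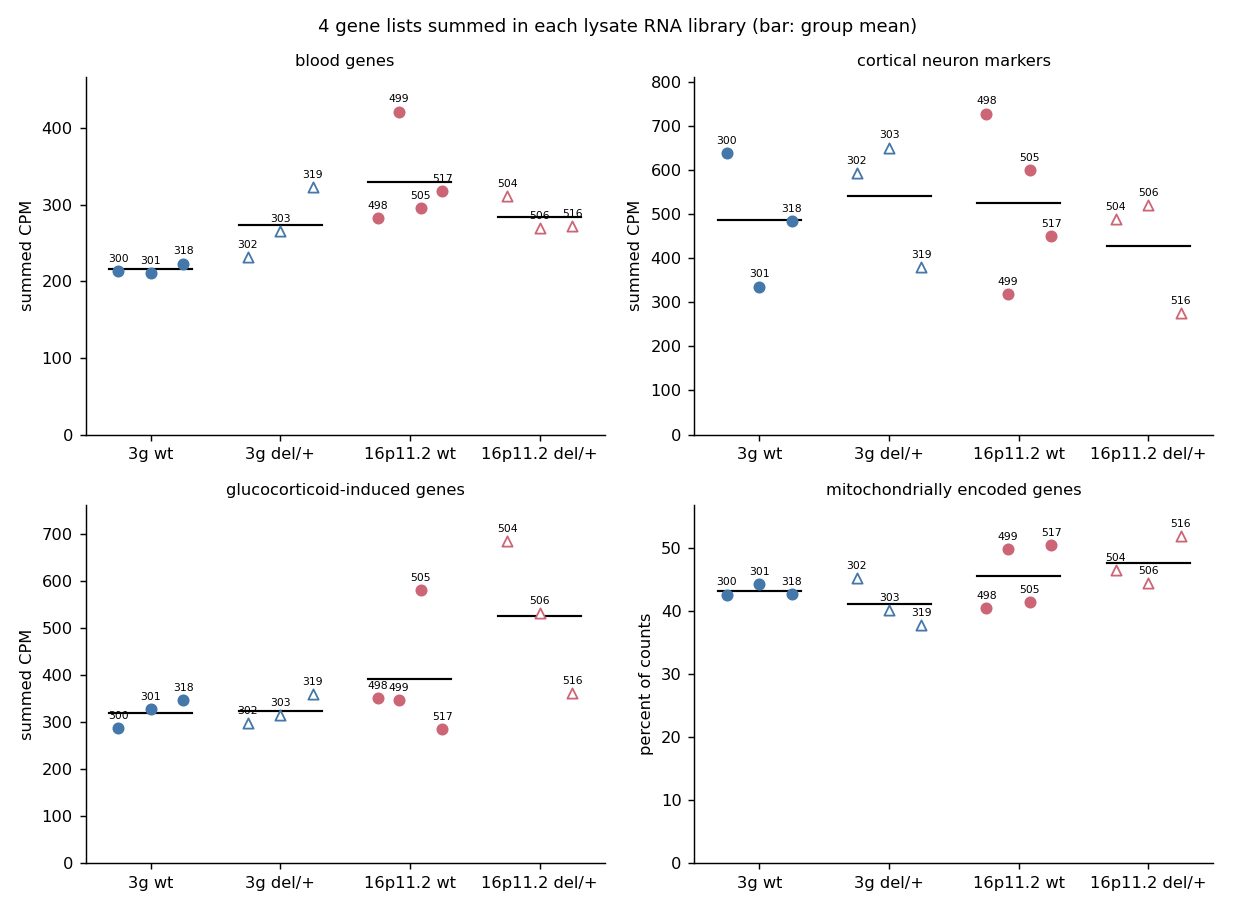
Summed level of blood genes, cortical neuron markers and glucocorticoid-induced genes in CPM, and percent of counts from mitochondrially encoded genes, in the 13 lysate RNA libraries by line and genotype; points are mice and bars group means. Blood genes separate the wild-type groups (211 to 223 against 283 to 421 CPM), cortical markers spread as widely within each line as between them, and RNA-505 stands alone among wild types for glucocorticoid-induced genes.

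Of 8 direct-pathway markers tested, 3 had an unadjusted p under 0.05, all lower in 16p11.2 mice, where the background was 4.94%: Pdyn at 24.3, 15.9, 16.5 and 21.9 CPM against 28.4, 30.5 and 28.6 (-0.56 ± 0.14, adjusted p = 0.212), Tac1 (-0.35 ± 0.15) and Isl1, a transcription factor of this lineage (-0.44 ± 0.20). The groups did not overlap for Pdyn and overlapped for the other 2, and Drd1 had -0.14 ± 0.10. DESeq2 called Pdyn alone of the 3 and gave Isl1 no adjusted p. The list's median was -0.24 in wild types, -0.32 to -0.18 with a mouse left out, and -0.03 in del/+ mice. The indirect-pathway list (5 tested, 1 lower, the receptor Gpr6 at -0.37 ± 0.15; Penk had -0.25 ± 0.16) had a median of -0.25, the 18 projection neuron markers -0.06 (1 lower, the adenylyl cyclase Adcy5 at -0.33 ± 0.12; Arpp21, the most abundant, had 0.16 ± 0.19) and the 14 interneuron markers -0.03 (1 higher, Pvalb, the calcium buffer of fast-spiking cells, 0.36 ± 0.11; Sst -0.11 ± 0.10). With a mouse left out the indirect-pathway median ran from -0.43 (without RNA-517) to -0.15 (without RNA-505), while those of projection neurons (-0.15 to 0.03) and interneurons (-0.10 to 0.12) changed sign. Of 22 glutamate receptor genes 2 were higher and 3 lower at an unadjusted p under 0.05 (backgrounds 5.85 and 4.94%). Grin1, the obligate NMDA receptor subunit, had -0.36 ± 0.12, Grm3 -0.42 ± 0.13, Grik1 0.45 ± 0.14 and Gria2 -0.17 ± 0.11. Of 12 GABA-A receptor genes 1 was higher and 2 lower at the same threshold.

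Median log2 fold changes of the glial lists were 0.02 for oligodendrocytes, 0.18 for their precursors, 0.04 for astrocytes, -0.07 for microglia and -0.43 for ependymal cells. Members counted below as higher or lower had an unadjusted p under 0.05. The backgrounds over all genes were 5.85% higher and 4.94% lower. Of 14 oligodendrocyte markers 1 was higher, Mobp, a myelin protein, with 982, 1015, 1621 and 1128 CPM against 724, 935 and 889 (0.48 ± 0.17, adjusted p = 0.339). Mbp had 0.28 ± 0.16. Leaving out RNA-505 gave 0.29 for Mobp and 0.14 for Mbp. Of 13 astrocyte markers 3 were higher and 1 lower, among them S100b (0.36 ± 0.10) and Gfap, the reactive astrocyte filament, at 26.05, 25.3, 43.0 and 19.3 CPM against 19.2, 22.8 and 17.5; Slc1a2, the glial glutamate transporter, had -0.06 ± 0.12. Of 14 microglial markers 2 were lower, among them Csf1r, the receptor for survival factors of microglia (-0.39 ± 0.13), while P2ry12 had -0.34 ± 0.23. None of the 5 precursor markers (Pdgfra -0.04 ± 0.11), 3 tested ependymal markers (Foxj1 -0.43 ± 0.38), 11 MHC genes (B2m -0.01 ± 0.14) and 9 genes known to differ between inbred strains had such a p. Of the interferon-induced list 1 of 10 was higher (Ifitm3, 0.48 ± 0.20), of the circadian list 2 of 16 (Bhlhe40 and Cry1) with Hlf at 0.17 ± 0.09, of the thalamic list 1 of 6 (Slc17a6, 0.58 ± 0.19) with Tcf7l2 at 0.22 ± 0.13, and of 3 tested choroid plexus genes 1 (Kl, 0.65 ± 0.29), with Clic6 at -0.02 ± 0.18.

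The strain genes are known to differ between common mouse strains. Nnt, the mitochondrial transhydrogenase that is disrupted in C57BL/6J mice, is listed under 2 gene identifiers: the larger was at 8.62 ± 1.27 CPM in 16p11.2 and 8.05 ± 1.73 in 3g mice, the smaller at 2.32, 5.52, 2.05 and 1.63 against 1.85, 5.12 and 6.07. Gabra2, the GABA-A receptor subunit with an intronic deletion in C57BL/6J, was at 69.6, 143, 96.5 and 149 CPM against 133, 136 and 193 (-0.43 ± 0.22, adjusted p = 0.519). The 16p11.2 mice ran from 69.6 to 149 CPM and the 3g mice from 133 to 193, so the groups overlapped. Cyfip2 (-0.08 ± 0.10), Crb1 (-0.18 ± 0.41), Disc1 (0.14 ± 0.38) and Apobec3 (0.39 ± 0.35) had no unadjusted p under 0.05, and Mmrn1, Nlrp12, Tyr and a (nonagouti) were below the filter.

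In the 16p11.2 region, intact in all 7 mice, none of 27 tested genes was called and the median was 0.06. Of the 3 genes with stop codons in the other allele of the 3g line, Taok2 and Mvp differed by less than their spread in wild types: Taok2, a stress kinase, was at 100 ± 5.71 CPM in 16p11.2 and 97.6 ± 8.18 in 3g mice, and Mvp, the major vault protein, at 3.48 ± 0.530 and 3.31 ± 0.630. Sez6l2, a neuronal membrane protein, was at 68.5, 52.4, 67.9 and 66.8 CPM against 76.4, 78.1 and 74.1; the groups did not overlap, with RNA-499 lowest (-0.25 ± 0.10, unadjusted p = 0.0298, adjusted p = 0.411). Cd2bp2, a splicing factor, was the other member with an unadjusted p under 0.05 (0.25 ± 0.09, higher), and Aldoa, the glycolytic aldolase and the most abundant, had -0.04 ± 0.11. In del/+ mice the same contrast gave -0.90 for Taok2 and -1.12 for Sez6l2. The median over the 25 genes of the region tested there was -1.12. Sez6l2 is itself the member at that median, so its place there says nothing about the stop codons, which both genes carry in 3g del/+ mice. For the line by genotype interaction, which takes out the wild-type difference, Sez6l2 had -0.85 and Taok2 -0.93. The other genes of the region called for it ran from -1.44 (Fam57b) to -0.94 (Hirip3). The paper reports by qPCR that the stop codons lowered striatal mRNA of the edited genes. Mvp, the other edited gene, was not called for the interaction. Whether Taok2, Sez6l2 and Mvp were lower in 3g del/+ lysates than in 3g wild-type lysates was not tested.

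**Figure D4:**
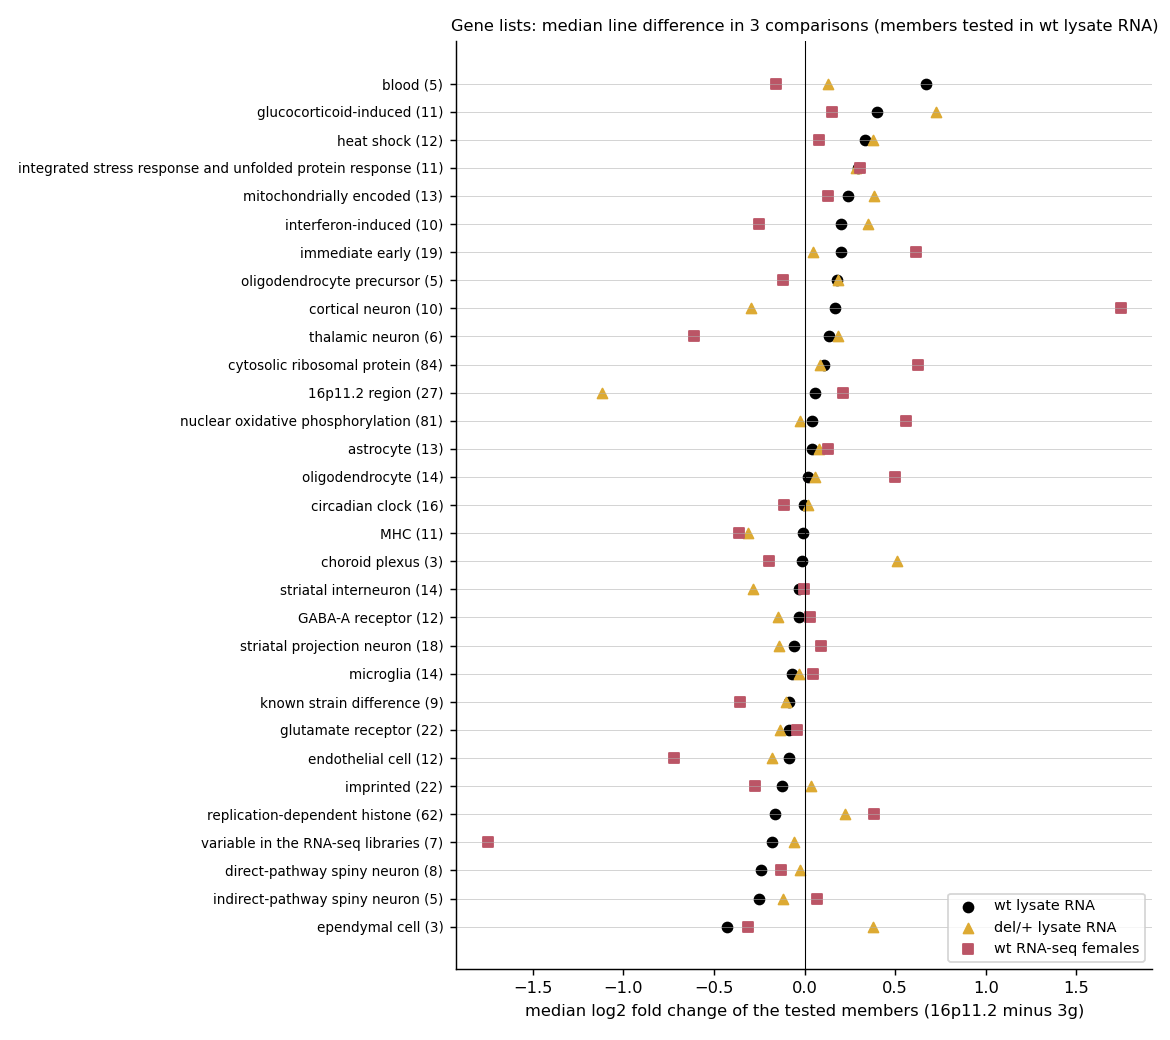
Median log2 fold change (16p11.2 minus 3g) over the tested members of each gene list in wild-type lysate RNA, del/+ lysate RNA and RNA-seq of wild-type females, lists in order of the wild-type lysate value and the number tested in brackets. Most lysate medians lie near 0, blood genes stand at 0.67, and cortical markers and ribosomal protein genes are near 0 in lysates but at 1.75 and 0.62 in RNA-seq.

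Of 84 cytosolic ribosomal protein genes 14 were higher and 1 lower at an unadjusted p under 0.05 (backgrounds 5.85 and 4.94%), with a median of 0.11, and Rpl29 was the called member. Rpl34 was at 44.6, 69.6, 52.6 and 65.8 CPM against 24.5, 27.7 and 41.2 (0.90 ± 0.18, adjusted p = 0.155), and Rpl3 was the lower member at 62.6, 52.1, 69.0 and 49.4 against 93.9, 90.2 and 71.9 (-0.55 ± 0.13, 0.191); both have near copies in the genome. Rps3a1 had 0.40 ± 0.11. The median was 0.03 without RNA-318 or without RNA-499. Of 81 nuclear oxidative phosphorylation genes 6 were higher and 1 lower (median 0.04), among them Ndufa12 (0.40 ± 0.11) and Ndufa5 (0.37 ± 0.12) of complex I, with Cox8a at 0.06 ± 0.10. Both lists were at 0.62 and 0.56 in RNA-seq females. Of 13 mitochondrially encoded genes 4 were higher (median 0.24), with mt-Nd3 at 6734, 10193, 7002 and 10327 CPM against 5365, 6238 and 6193: the 2 libraries rich in mitochondrial counts, RNA-499 and RNA-517, led it. mt-Co1 had -0.04 ± 0.19. Of 62 histone genes 1 was higher and 5 lower (median -0.17), Hist1h4f at -0.46 ± 0.15 and Hist3h2a at -0.09 ± 0.11, and of 22 imprinted genes 3 were higher and 3 lower, Snrpn at 0.23 ± 0.09 and Ube3a at -0.11 ± 0.09.

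A list of 7 genes was picked from this study's RNA-seq libraries because they varied there. In lysates 1 was lower at an unadjusted p under 0.05 (Col11a1, a collagen, -0.57 ± 0.19), where the background was 4.94%. The most abundant, Cfap54, a cilium protein, was at 16.2, 59.4, 55.0 and 73.3 CPM in 16p11.2 and 52.0, 50.5 and 44.0 in 3g mice. Mouse RNA-498 alone was low. The list was chosen on this series and is no independent evidence. Of the 4 Y-linked genes Uty was higher (0.28 ± 0.10) and Eif2s3y lower at an unadjusted p under 0.05. Mt1, a metallothionein and the most abundant of the glucocorticoid-induced list, had 0.10 ± 0.13.

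In the ribosome footprints of the same 7 lysates 16 of 6633 genes were called between lines (0.241%), and Ccm2 was not among them. Rpl29 was below the filter there, at 12.7, 8.13, 4.71 and 10.3 CPM in the 16p11.2 mice and 9.83, 9.43 and 14.5 in the 3g mice, so the groups overlapped. These footprint libraries held 342052 to 611890 counts and are of the same lysates, so they add no animals.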

How the data were processed

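Striatal lysate RNA of 7 wild-type mice was sequenced by the authors, and the deposited values are raw counts per gene; per the labels reads were mapped to mm39 with Bowtie2, and the counter, annotation and strand setting are not given in the sources used here. All 22 counts of 7 digits end in 0, so the largest counts were written to fewer digits. The deposited counts of del/+ lysates, footprints and RNA-seq (per the labels HTSeq on mm10; they give polyA RNA as the molecule but a Ribo-Zero kit in the protocol) were fitted separately, and their levels were never joined across assays. Genes were joined by identifier, and 18377 of 18411 had a symbol.

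Counts were filtered with filterByExpr, scaled by TMM and tested with edgeR 4.0.16 (glmQLFit, glmQLFTest; R 4.3.3) in the 7 libraries only, 16p11.2 against 3g, with Benjamini-Hochberg adjustment and a threshold of 0.05. The standard error is the absolute log2 fold change over the square root of F. CPM use the TMM scale of the 7 libraries, or of all 13 where del/+ mice are shown. The fit was tested on simulated data. Groups come from the labels, which number the animals; p-values measure the spread between these samples. The members and gene lists were chosen with earlier results of these data known. Genes were named as, in each direction, the 12 called genes with the largest change without overlap and at least 1 CPM; per list up to 4 called members, or else the member with the highest mean; Taok2, Sez6l2, Mvp and the strain list. All others were named after their values were seen. Some genes that these rules name are not reported here. Alternatives were DESeq2 1.42.0, its size factors in edgeR, no filter, all 13 libraries in a single fit, a minimum change of 1.5-fold and leaving out each mouse; leaving out RNA-499 and RNA-517 together, and leaving out the 13 mitochondrially encoded genes, were added after seeing the data.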

Additional observations from a re-analysis of the deposited data

Results flagged for a closer look

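The line difference in del/+ lysates differed from that in wild types by the interaction test for 5 of the named genes. For Rpl29 the interaction was -1.90 (adjusted p = 0.00932), with wild types at 1.70 and del/+ mice at -0.21; its part in any genotype effect was not tested. For 4 genes of the 16p11.2 region, which 16p11.2 del/+ mice lack on 1 chromosome, it was -1.24 for Cd2bp2 (adjusted p = 0.00262), -1.09 for Aldoa (0.00381), -0.93 for Taok2 (0.0161) and -0.85 for Sez6l2 (0.0408).

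Within the 4 wild-type 16p11.2 mice, a single mouse stood far from the other 3 for 11 of 93 named genes. Chance gives about 1 in 20 groups, but most of these genes were named after their values were seen and several vary together, so the count cannot be set against that rate. Mouse RNA-505 was high for 6: Abhd14a at 12.1 CPM against 8.42 to 8.55 in the others, Poc1a at 10.1 against 5.16 to 5.37, Apobec3 at 5.32 against 2.14 to 2.63, Plin4 at 15.5 against 1.33 to 2.0, Sgk1 at 89.4 against 30.1 to 38.2 and Tsc22d3 at 84.8 against 21.6 to 30.5. Mouse RNA-499 was high for Arhgap12 at 89.5 against 63.0 to 67.0, Ccm2 at 63.7 against 44.4 to 47.1 and Hba-a1 at 125 against 86.8 to 91.9. Mouse RNA-499 was low for Sez6l2 at 52.4 against 66.8 to 68.5 and Slc1a2 at 3418 against 4060 to 4181. The 3g group of 3 mice is too small for the same test.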

How the results depend on the processing

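Between wild-type lysates the 2 genes called became 162 with DESeq2, 5 with no filter, 1 with a minimum 1.5-fold change and 0 to 4 when each mouse was left out (0 without RNA-318, 1 without RNA-300, RNA-301 or RNA-498, and 4 without RNA-505 or RNA-517). Leaving out RNA-499 and RNA-517 together, the libraries richest in mitochondrial counts, gave 18. Size factors of DESeq2, all 13 libraries and leaving out the mitochondrial genes kept the count at 2. DESeq2 called 396 of 18286 genes fitted in del/+ lysates (2.17%), against 0.72% by edgeR. The 2.33% given for wild types is a share of genes with an adjusted p. Of the 18281 genes fitted there, 162 were called. DESeq2 also called 3595 genes in RNA-seq males against 3, 66 in footprints against 16 and 36 for the interaction against 18. With a mouse left out the counts ran from 0.248% of genes (without RNA-504) to 2.08% (without RNA-516) in del/+ lysates, from 1 to 8835 (without 17) in RNA-seq males, from 1 (without RNA-499) to 72 (without RNA-318) in footprints and from 8 (without RNA-318) to 18 for the interaction. Calls shared with RNA-seq in the same direction were 99 in females and 40 in males by DESeq2, against 1 and 0 by edgeR. With a mouse left out, edgeR gave 0 to 2 in males. The cause of these shifts was not tested. Of 1023 alternative values of 93 named genes 940 kept direction and side of the threshold, 24 (all by DESeq2) kept direction but had no adjusted p, 23 passed it, 5 lost it and 31, in 17 genes, changed sign, none of these called. Leaving out each mouse gave log2 fold changes of Aldoa -0.12 to 0.017, Arpp21 -0.035 to 0.29, B2m -0.16 to 0.062, Cfap54 -0.18 to 0.36, Clic6 -0.16 to 0.074, Crb1 -0.41 to 0.071, Disc1 -0.047 to 0.43, Hsp90b1 -0.013 to 0.25, mt-Co1 -0.16 to 0.045, Mt1 -0.022 to 0.21, Mvp -0.069 to 0.21, Nnt -0.0101 to 0.29, Pdgfra -0.11 to 0.013, Sgk1 -0.087 to 0.58, Slc17a7 -0.13 to 0.46, Slc1a2 -0.086 to 0.0051 and Taok2 -0.016 to 0.11. No paired analysis was possible because the wild-type mice of the 2 lines share no number. DESeq2, run without the filter on low counts, gave an adjusted p to 6944 of the 18281 genes that it fitted in wild-type lysates. Of 32 gene lists 9 had a median that changed sign under some alternative.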
